A study of Homo sapiens with 62 samples.

Results

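The genes described here encode 10 proteins grouped as differentiation antigens of B cells, all of the cell surface except the intracellular FCRLA. They were taken by symbol, and 9 of the 10 had a row in the deposited tables, which list 55040 annotated genes each: MS4A1, FCRLA, FCER2, CR2, CD40, CD38, CD27, CD70 and CD48. CD24 was not analysed here. These 9 genes each had a single row and passed a filter on low values (mean of 1 FPKM or more over 20 libraries), as did 10506 genes in all. CD38 passed it through one group of libraries alone.

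B cells change their surface as they mature. CD20 (the product of MS4A1) marks mature B cells and is lost in plasma cells, CD27 and CD70 are a receptor and its ligand that mark memory and activated cells, and CD38 is high on germinal centre cells and plasmablasts. CR2, also called CD21, is a complement receptor and the protein through which Epstein-Barr virus enters B cells, while CD23 (FCER2), CD40 signalling and CD48 belong to the activated state that this virus imposes on the cells it immortalises.

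The series measured polyadenylated RNA of GM12878, a human B-lymphoblastoid line immortalised with Epstein-Barr virus, after SMARTer amplification and Nextera tagging. No treatment or genotype differs among the libraries used. Of its 62 samples, 20 are used here, all parts of 10-cell pools that were divided into 10 and then handled like single cells, a design meant to assess technical variation. Titles of the 10 numbered splits count from 1 to 10, and the 10 unnumbered splits carry library numbers only (232, 233 and 246 to 253). Numbered splits 5 to 8 (run a) have laboratory experiment numbers apart from those of the other 6 (run b), and the unnumbered splits fall by these numbers into 232 and 233 (run c) and 246 to 253 (run d). Whether a set is 1 pool or several is not stated in the labels. A p-value therefore measures the spread between splits, which may be technical, and a difference between the sets cannot be told apart from a difference between pools, days or batches. Because each library is a part of a pool of cells, fewer cells of a type and less RNA per cell cannot be told apart either.

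Levels are in FPKM, fragments scaled to transcript length and to library size, so genes can be compared with each other. A gene is called detected at 1 FPKM or more. Depth, estimated from the authors' confidence bounds, was 11.8 to 20.6 M fragments for numbered splits. Of the unnumbered splits, 8 had 23.2 to 38.7 M, split 252 had 7.79 M and split 247 had 0.128 M. The 95% bounds of MS4A1 in split 247, for example, were 14.4 and 300 FPKM around 157 FPKM. Of 29 marker genes of T cells, monocytes, NK cells, erythroid cells, platelets, epithelium and fibroblasts, 20 reached 1 FPKM in no split, among them CD14, CD3D, CD8A, HBB and PF4, and 9 did in at least 1. Of these, CD3E reached 29.9 FPKM and passed 1 FPKM in 3 numbered splits, TRAT1 reached 3.31 FPKM in numbered split 2 and KRT8 40.7 FPKM in numbered split 7, and none of the 3 passed 1 FPKM in an unnumbered split. Their summed level was 2.21 to 128 FPKM in the numbered and 0.903 to 3.8 FPKM in the unnumbered splits. The highest sum comes from CD247 in numbered split 9, at 126 FPKM, and CSF1R was detected in all 10 numbered and in 8 unnumbered splits. The part of these markers in the differences below was not tested. The B cell markers MS4A1 and CD74 were detected in all 20 splits, and CD79A in 10 numbered and 4 unnumbered splits.

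CD48 and MS4A1 had the highest medians of the members in both sets. In the unnumbered set this did not hold in every split. CD48 lay below FCRLA in splits 232, 233 and 251 (41.1 against 156 FPKM in split 233), and CD40 was the highest member in split 232. By median, the numbered splits ran from CD48 at 828 FPKM and MS4A1 at 692 FPKM through CD40 at 142, FCRLA at 138, FCER2 at 71.3, CD70 at 55.6, CD27 at 52.6 and CD38 at 32.2 FPKM to CR2 at 11.7 FPKM. The unnumbered splits ran from CD48 at 353 FPKM and MS4A1 at 227 FPKM through FCRLA at 75 FPKM, FCER2 at 37.5 FPKM, CD40 at 10.1 FPKM and CR2 at 2.82 FPKM to CD70, CD27 and CD38, whose medians lay below 1 FPKM. Neighbours in each order were compared on log2(FPKM + 1) within splits, 16 pairs in all, so that CD48 was compared with MS4A1 alone. The pairs were picked by the medians of these same splits, and the p-values take no account of that choice. Only the step below MS4A1 passed. MS4A1 exceeded CD40 in 10 of 10 numbered splits by a mean of 2.75 (exact 2-sided permutation p = 0.00195, adjusted 0.0312), and FCRLA in 9 of 10 unnumbered splits by 2.64 (exact permutation p = 0.00586, adjusted 0.0469). CD48 was above MS4A1 in 8 of 10 numbered and 5 of 10 unnumbered splits (exact permutation p = 0.207 and 0.646, adjusted 0.748 for each). Neighbours among the lower 7 members did not differ beyond their spread from split to split.

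**Figure D1:**
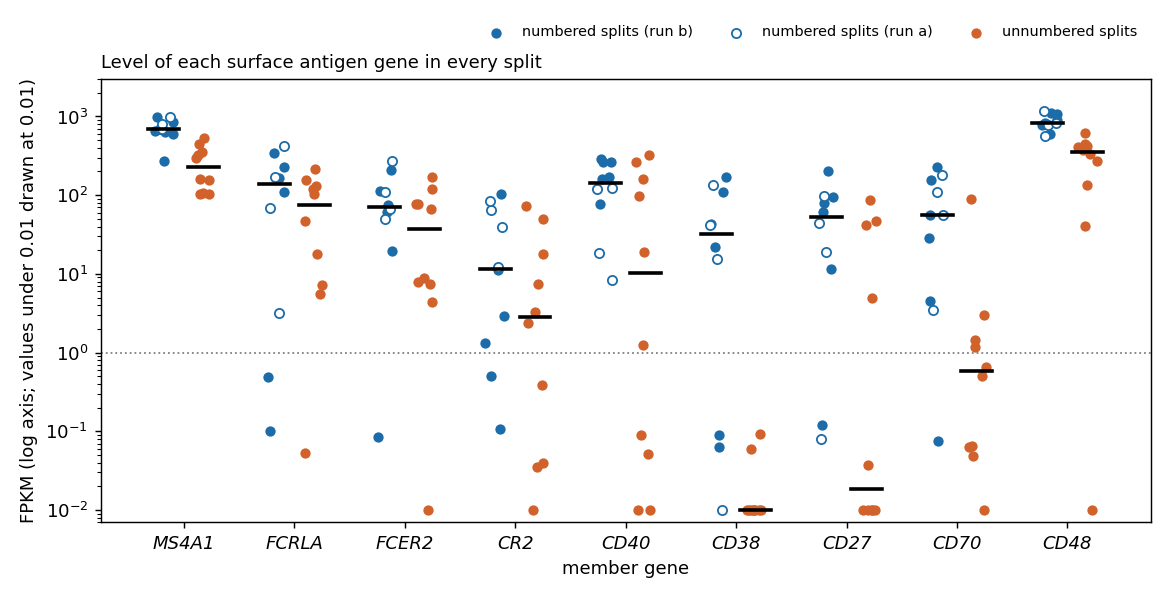
FPKM of each member in every split, on a log axis with values under 0.01 drawn at 0.01. Filled blue points are numbered splits of run b, open blue points numbered splits of run a and orange points unnumbered splits. Black bars are the set medians and the dotted line is 1 FPKM. MS4A1 and CD48 have the highest medians, and all 10 unnumbered values of CD38 lie below 0.1 FPKM.

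Most of the lower members were at 1 FPKM or more in some splits and under it in others. Whether an undetected gene was absent from a split or lost in preparation was not tested. A numbered split held 7.9 ± 1.29 of the 9 genes at 1 FPKM or more (SD, n = 10; range 5 to 9), and an unnumbered split 5.7 ± 1.25 (SD, n = 10; range 4 to 7). Summed over genes and splits this is 79 of 90 possible detections, or 87.8%, against 57 of 90, or 63.3%. Detection over all 10506 tested genes also differed: numbered splits held 3558 (split 9) to 6844 (split 7) of them at 1 FPKM or more. Unnumbered splits held 2802 (split 253) to 4551 (split 233). Whether the members differ from all genes in this was not tested. Numbered splits 3, 6, 7 and 10 held every one of the 9 genes, and no unnumbered split did. Numbered split 9 lacked FCRLA, FCER2, CD27 and CD70, yet held the highest CR2 and CD38 values of its set. Among the unnumbered splits, 232 lacked FCER2, CD38, CD27, CD70 and CD48, split 248 lacked CR2, CD40, CD38, CD27 and CD70, and split 253 lacked FCRLA, CR2, CD40, CD38 and CD70. In split 253 MS4A1 and CD48 made up 94.1% of the summed FPKM of the 9 genes, and in split 232 only 19.8%.

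**Figure D2:**
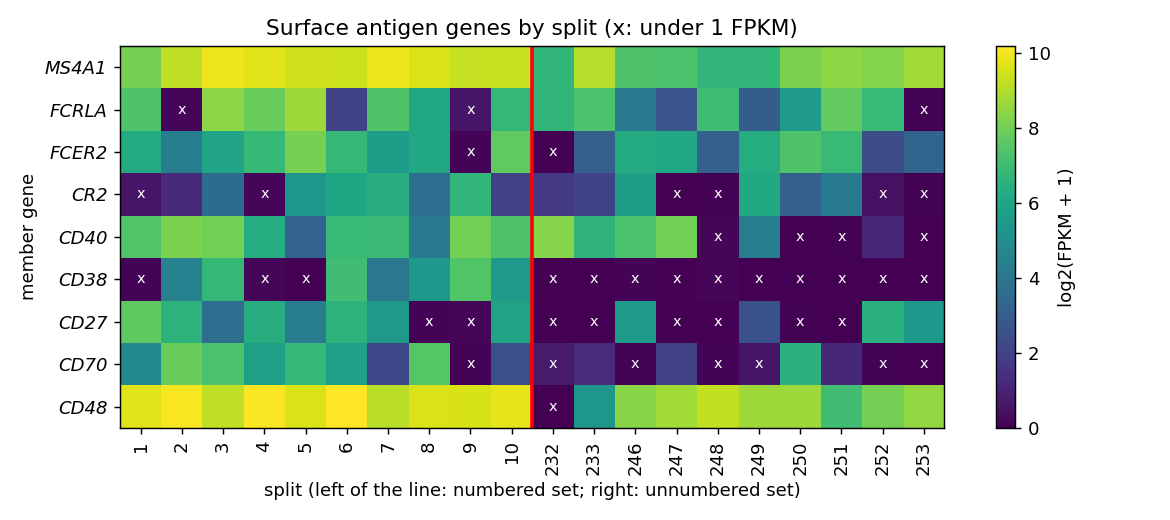
log2(FPKM + 1) of the 9 genes (rows) in the 20 splits (columns), numbered splits left of the red line and unnumbered splits right of it; a cross marks a value under 1 FPKM. The CD38 row is crossed in all 10 unnumbered splits, and CD48 is crossed in split 232 alone.

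Between the sets, MS4A1, CD38 and CD70 were higher in the numbered splits by limma, 3 of 9 genes, and none was lower. CD38 passed the filter on low values through the numbered set alone, so its place in this count depends on the values compared. Of all tested genes, 3.93% were higher in the numbered and 1.38% in the unnumbered splits (5.31% in either direction). The differences given below are numbered minus unnumbered on log2(FPKM + 1), where the median over all tested genes was 0.35. All 9 members had a difference above 0, as did 59.9% of all tested genes, and their median was 2.42. With size factors the median of all genes was 0.23 and that of the members 2.16. The members' median was 1.61 without split 232 and 1.60 with a pseudocount of 10. No member separated the sets without overlap, while 1.65% of all tested genes lay higher in every numbered than in every unnumbered split.

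MS4A1 encodes CD20, a membrane protein of B cells and the target of rituximab (chromosome 11, 60223225 to 60238233 in the deposited files). The numbered splits ranged from 274 FPKM in split 1 to 995 FPKM in split 7 around a median of 692 FPKM, and the unnumbered ones from 105 FPKM in split 248 to 534 FPKM in split 233 around 227 FPKM. Numbered split 1 lay inside the unnumbered range and the other 9 numbered splits above all of it. The means were 716 ± 209 and 258 ± 155 FPKM (SD, n = 10), a ratio of 2.78, and the log2 difference was 1.64 (SE 0.36, limma adjusted p = 0.00401). With runs b, c and d alone, that is without numbered splits 5 to 8, it was 1.51 and missed the threshold (limma adjusted p = 0.0537), although the medians of run a and run b were close, at 748 and 643 FPKM. Its position among the tested genes of a library was also higher in the numbered set, at a median percentile of 97.2 against 91.8. Of the members it was among the steadiest, with a coefficient of variation (CV, SD over mean) of 0.292 over the numbered splits and 0.6 over the unnumbered ones. Genes within a factor of 2 of its mean had a median CV of 0.375 and 0.73.

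CD48 is a glycolipid-anchored member of the SLAM family that binds CD2 and CD244, first known as a surface protein of virus-activated B cells (chromosome 1, 160648536 to 160681641). Numbered splits held 563 to 1177 FPKM, with a median of 828 FPKM. In the unnumbered splits it ranged from 0.00818 FPKM in split 232, with authors' bounds of 0.00259 and 0.0138 FPKM, to 621 FPKM in split 248, with a median of 353 FPKM. The sets overlapped only where numbered splits 3 and 7, at 602 and 563 FPKM, lay below split 248: 8 numbered splits lay above every unnumbered one, and 9 unnumbered splits lay below every numbered one. The log2 difference of 2.42 (SE 0.79) missed the threshold (limma adjusted p = 0.0782). It passed without split 232, with a smaller difference of 1.61 (limma adjusted p = 0.0122), and by an exact rank-sum test per gene (adjusted p = 0.00158), a test that called 9.07% of all genes, 6.72% as higher in the numbered and 2.35% as higher in the unnumbered set. It also passed with a pseudocount of 10 (2.05, limma adjusted p = 0.0262). In split 232, where CD48 was lowest, CD40 reached its highest value of the 20 libraries, 322 FPKM.

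The upstream sequence of CD48 is printed with that of CD38, since both genes were lower in the unnumbered set by at least 1 of these tests. RefSeq promoter windows (GRCh38.p14) were matched for 6 of the 9 genes, and CD40, CD70 and MS4A1 had none. Shown are the 250 bases before the RefSeq start, chr4:15778078-15778327 on the plus strand for CD38 and chr1:160711823-160712072 on the minus strand for CD48. Capitals mark TGGGAA, the core bound by RBPJ, through which the viral protein EBNA2 acts.
CD38: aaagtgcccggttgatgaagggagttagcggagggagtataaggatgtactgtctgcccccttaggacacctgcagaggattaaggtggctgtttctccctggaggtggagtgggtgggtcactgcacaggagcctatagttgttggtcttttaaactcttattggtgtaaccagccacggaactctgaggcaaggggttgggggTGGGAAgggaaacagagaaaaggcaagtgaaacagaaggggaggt
CD48: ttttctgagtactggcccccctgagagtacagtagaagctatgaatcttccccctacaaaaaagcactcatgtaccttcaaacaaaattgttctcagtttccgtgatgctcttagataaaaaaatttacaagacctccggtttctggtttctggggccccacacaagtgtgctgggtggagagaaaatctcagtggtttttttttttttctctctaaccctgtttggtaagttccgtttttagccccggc

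On either strand, TGGGAA lay in the windows of 3 genes, CD27, CD38 and FCER2, and in 20.8% of all 35116 RefSeq windows of that length. In CD38 it began 45 bases before the start. GAGGAA, a core of ETS factors such as PU.1, was found for FCRLA alone, with 23.6% of all windows. The octamer ATTTGCAT was found for none, with 1.63% of all windows. A loose NF-kB pattern, GGG and CC separated by any 5 bases, was found for CD27, CR2 and FCER2, with 54.4% of all windows. These are matches of letters and do not show a site that is bound.

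CD38, an ectoenzyme that makes cyclic ADP-ribose, was the only member detected in no split of one set (chromosome 4, 15779898 to 15851069). The numbered splits ranged from a listed 0 in split 5 to 171 FPKM in split 9, with a median of 32.2 FPKM, and 7 of 10 passed 1 FPKM. All 10 unnumbered splits lay below 0.1 FPKM: 4 were listed at 0, the median was 0.000812 FPKM and the highest value was 0.0915 FPKM in split 248. The groups overlap only through numbered splits 1, 4 and 5. The log2 difference was 4.08 (SE 0.96, limma adjusted p = 0.00882). It passed under each of 10 limma alternatives, at adjusted p of 0.00457 to 0.0434, but its size ranged from 1.94 with a pseudocount of 10 to 6.37 with a pseudocount of 0.1. CD38 passed the filter on low values through the numbered set alone (means 53.8 and 0.0157 FPKM). Its inclusion therefore depends on the values compared. Its run a and run b medians were 28.9 and 32.8 FPKM. No fold is given, because 4 unnumbered values are listed at 0.

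CD27 and CD70 are a receptor of the TNF receptor family and its only ligand. CD70 (chromosome 19, 6583135 to 6591163) ranged from 0.0745 FPKM in split 9 to 231 FPKM in split 2 in the numbered set, with a median of 55.6 FPKM and 9 of 10 splits above 1 FPKM. In the unnumbered set it was listed at 0 in split 253, had a median of 0.576 FPKM and passed 1 FPKM in 4 splits. Split 250 held 89.3 FPKM, 92.8% of the set's sum, and the next value was 3 FPKM. The log2 difference was 3.83 (SE 1.05, limma adjusted p = 0.0275). The call was lost with runs b, c and d alone (3.49, limma adjusted p = 0.154) and with run a as a covariate (3.49, limma adjusted p = 0.14). These settings give the same difference, because run a lies wholly within the numbered set. The CD70 call was also lost with no filter on low values (limma adjusted p = 0.0557). It was lost when numbered split 2, 3, 5 or 8 was left out (limma adjusted p up to 0.0567 over the 20 single omissions).

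CD27 (chromosome 12, 6554033 to 6560884) ranged from 0.08 FPKM in split 8 to 201 FPKM in split 1 in the numbered set, with a median of 52.6 FPKM and 8 of 10 splits above 1 FPKM. The unnumbered set had 5 splits listed at 0, a median of 0.0186 FPKM and 4 splits above 1 FPKM, the highest being 87.9 FPKM in split 252. The log2 difference of 2.68 (95% interval 0.26 to 5.09) did not pass (limma adjusted p = 0.24). In the unnumbered set CD27 passed 1 FPKM in splits 246, 249, 252 and 253, and CD70 in none of these. That pattern rests partly on the cutoff. CD70 stood at 1.18 FPKM in split 251, 1.45 FPKM in split 233 and 3 FPKM in split 247 (authors' bounds 0 and 6.99 FPKM). In the numbered set both genes passed 1 FPKM in 8 of 10 splits. An antisense gene, CD27-AS1, overlaps CD27 (6548167 to 6560733) and reached 51.2 FPKM in numbered split 4, where CD27 stood at 79.9 FPKM. No source used here states that strand was counted, so reads of this pair cannot be told apart.

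CD40, the TNF receptor family member through which T cells activate B cells, was present in every numbered split (chromosome 20, 44746911 to 44758502). Its values there ran from 8.25 FPKM in split 5 to 291 FPKM in split 2, with a median of 142 FPKM. The unnumbered splits fell into high and near-zero values: 5 lay at 19 to 322 FPKM, split 252 at 1.26 FPKM, and the other 4, splits 248, 250, 251 and 253, at 0 to 0.09 FPKM. The highest unnumbered value exceeded every numbered one, and the log2 difference of 3.07 (95% interval 0.61 to 5.52) did not pass (limma adjusted p = 0.164). Within the numbered set run a had the lower median, 68.4 against 217 FPKM.

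CR2 and FCER2 encode the complement receptor CD21 and the low-affinity IgE receptor CD23, which bind each other. FCER2 (chromosome 19, 7753644 to 7767032) had numbered values of 0.0859 FPKM in split 9 to 274 FPKM in split 5, with a median of 71.3 FPKM. In the unnumbered set it was listed at 0 in split 232 and reached 168 FPKM in split 250, with a median of 37.5 FPKM, and in each set 9 of 10 splits passed 1 FPKM. The 2 sets overlap over most of their range, and the log2 difference was 1.30 (95% interval -0.79 to 3.39, limma adjusted p = 0.556). CR2 (chromosome 1, 207627575 to 207663240) ranged from 0.106 FPKM in split 4 to 104 FPKM in split 9 in the numbered set and from a listed 0 in split 247 to 72.5 FPKM in split 249 in the unnumbered set. Its medians were 11.7 and 2.82 FPKM, with 8 and 6 splits above 1 FPKM, and its log2 difference was 1.22 (95% interval -1.0 to 3.44, limma adjusted p = 0.605). The median of CR2 was 52.2 FPKM in run a and 2.13 FPKM in run b, while the highest value, that of split 9, was in run b. With runs b, c and d alone the CR2 difference was 0.01.

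FCRLA, an intracellular relative of the Fc receptors found in B cells, showed the smallest difference of the 9 (chromosome 1, 161676762 to 161684142). It ranged from 0.102 FPKM in split 2 to 418 FPKM in split 5 in the numbered set, with a median of 138 FPKM, and from 0.0523 FPKM in split 253 to 213 FPKM in split 251 in the unnumbered set, with a median of 75 FPKM. Detection was 8 and 9 of 10 splits. The log2 difference was 0.41 with a 95% interval of -2.10 to 2.92 (limma adjusted p = 0.876), so a difference of several fold in either direction is within its error. The low values were not all firmly measured: the authors' bounds of split 2 were 0 and 0.471 FPKM.

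**Figure D3:**
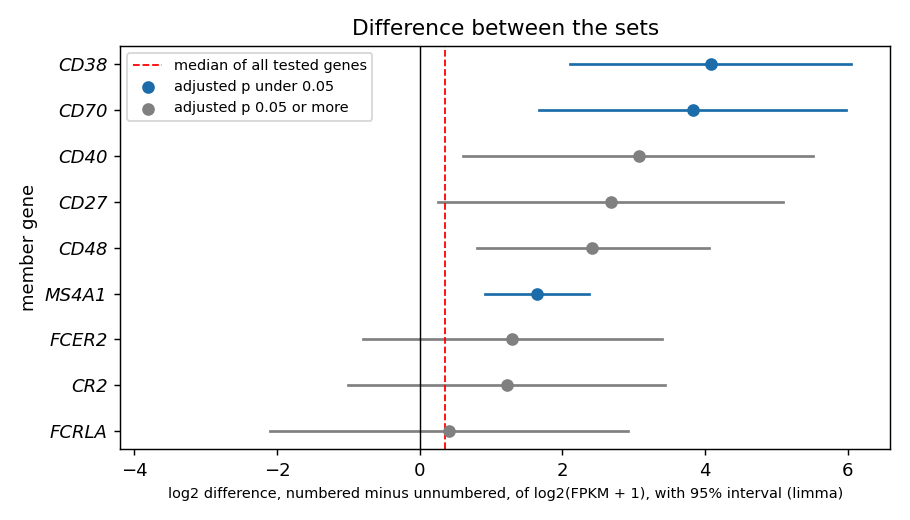
log2 difference (numbered minus unnumbered, of log2(FPKM + 1)) of each member with its 95% interval from limma, 10 splits a set. Blue genes passed an adjusted p of 0.05 and grey ones did not; the red dashed line is the median of all tested genes, 0.35, and every point lies to its right.

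The spread of the members from split to split was wide, and their CV lay mostly within the quartiles of genes within a factor of 2 of their mean. It was below the lower quartile for CD48 in the numbered set (0.241 against 0.273). In the unnumbered set it was below for CR2 (1.64 against 1.66) and CD38 (2.06 against 2.12). In the numbered set the CV was 0.241 for CD48, 0.671 for CD40 and 0.867 to 1.21 for the other members except MS4A1. Genes within a factor of 2 of the mean of CD48 had a median CV of 0.358, and those near the mean of CD40 0.774. The 36 pairs of members had a median Pearson r of -0.07 in the numbered set (range -0.55 to 0.68) and 0.04 in the unnumbered set (range -0.5 to 0.66), each over the 10 splits of a set, which share library depth and preparation. FCRLA and FCER2, at 0.68 in the numbered set, stood at -0.22 in the unnumbered one. These values are a description and were not tested.

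Of 5804 other genes with a mean of 10 FPKM or more, those closest to CD48 across the 20 splits, once each set was centred on its own mean, were SSR4, MAD2L1 and ATP6V0E1 (Pearson r = 0.91, 0.90 and 0.89). Those values rest on split 232: without it, a comparison added after seeing the data, they were 0.48, 0.39 and 0.33. For the genes named next, r without that split was 0.61 to 0.76. The closest to MS4A1 were WHSC1L1, RHEB and TRIM38 (0.69, 0.69 and 0.65), to FCRLA SCP2, DFNA5 and OCIAD1 (0.75 each), to FCER2 MTRNR2L9, CISD1 and DCUN1D5 (0.72, 0.71 and 0.71) and to CD40 COPS4, PET112 and TCEA1 (0.72, 0.71 and 0.71). They are the extremes of 5804 values over few libraries and are given as a description.

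Other genes of the members' pathways were read from 8 lists with 87 genes. The lists were chosen with earlier results of these data known, so the shares called are a description. Rows were found for 85 of them and 58 were tested, of which 9 were higher in the numbered splits and 0 higher in the unnumbered ones by limma, 15.5% of those tested, where 3.93% of all tested genes were higher in the numbered and 1.38% in the unnumbered splits. The surface antigen list gave 5 of 21: CD79A, a signalling chain of the B cell receptor (log2 difference 4.69, adjusted p = 0.00274), CD83, an activation marker (4.25, adjusted p = 0.011), the tetraspanin CD37 (4.19, adjusted p = 0.0211), the inhibitory Fc receptor FCGR2B (3.78, adjusted p = 0.0257) and the most abundant of the list, CD52 (3.60, adjusted p = 0.0381). CD52, a small glycolipid-anchored antigen, was detected in 10 numbered and 8 unnumbered splits, at medians of 1354 and 339 FPKM. Its call was kept with a pseudocount of 10 and by the rank-sum test and lost under the other 9 alternatives. With runs b, c and d alone, CD37, CD79A and CD83 lost theirs too. CD37 and CD83 also lost it with run a as a covariate, CD37 and FCGR2B with no filter on low values, and FCGR2B without splits 9, 247 and 253. The median difference of this list was 1.33.

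The remaining lists gave 1 called gene or none. In the CD48 and SLAM family list it was SLAMF1 (1 of 8), a receptor of activated lymphocytes at medians of 360 and 50.7 FPKM (4.59, limma adjusted p = 0.0072), a call also lost with runs b, c and d alone. In the CD40 signalling list it was the adhesion molecule gene ICAM1 (1 of 10; 3.51, limma adjusted p = 0.0177), while BIRC3, the most abundant of that list, stood at medians of 92.3 and 66.3 FPKM (limma adjusted p = 0.411). CD40LG, which encodes the ligand of CD40, was listed at 0 in all 20 splits. Among partners of CR2 and CD23 it was IFITM1, an interferon-induced membrane protein (1 of 8; 2.47, limma adjusted p = 3.34e-06). In the TNF superfamily list it was TNFSF13B, which encodes the survival factor BAFF (1 of 8; 3.33, limma adjusted p = 0.0162). It was detected in 7 numbered and 0 unnumbered splits, so that it too passed the filter through the numbered set alone, and it lost its call with a pseudocount of 10. SIVA1, named for its binding of CD27, did not pass (1.88, limma adjusted p = 0.523).

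Relatives of MS4A1 and FCRLA were near absent. Of 8 other MS4A genes 2 were tested and neither passed. The most abundant, MS4A6A, was detected in 1 numbered split only, at 123 FPKM, and MS4A2 in 1 unnumbered split only, at 57.1 FPKM. Each passed the filter on low values through that 1 split. Of 7 genes of the Fc receptor like family 1 was tested, FCRL5, detected in 3 numbered splits and no unnumbered one (limma adjusted p = 0.331). None of the 3 genes listed beside CD38 was tested, and NT5E, the highest, was detected in 1 split. MS4A2, CR1, CD40LG and TNFRSF17 are named here after their values were seen. TNFRSF17, the BCMA gene of plasma cells, went the other way, with medians of 7.65 and 154 FPKM (-3.77, limma adjusted p = 0.0526), and was called as higher in the unnumbered splits under 6 of 11 alternatives: a pseudocount of 10, size factors, TPM, run a as a covariate, runs b, c and d alone, and the rank-sum test. PTPRC, the CD45 gene, also named after its values were seen, had medians of 67.4 and 265 FPKM (-2.66, limma adjusted p = 0.113) and was called in that direction with run a as a covariate only. CR1, the complement receptor next of kin to CR2, was detected in 3 numbered splits and no unnumbered one (1.09, limma adjusted p = 0.363).

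**Figure D4:**
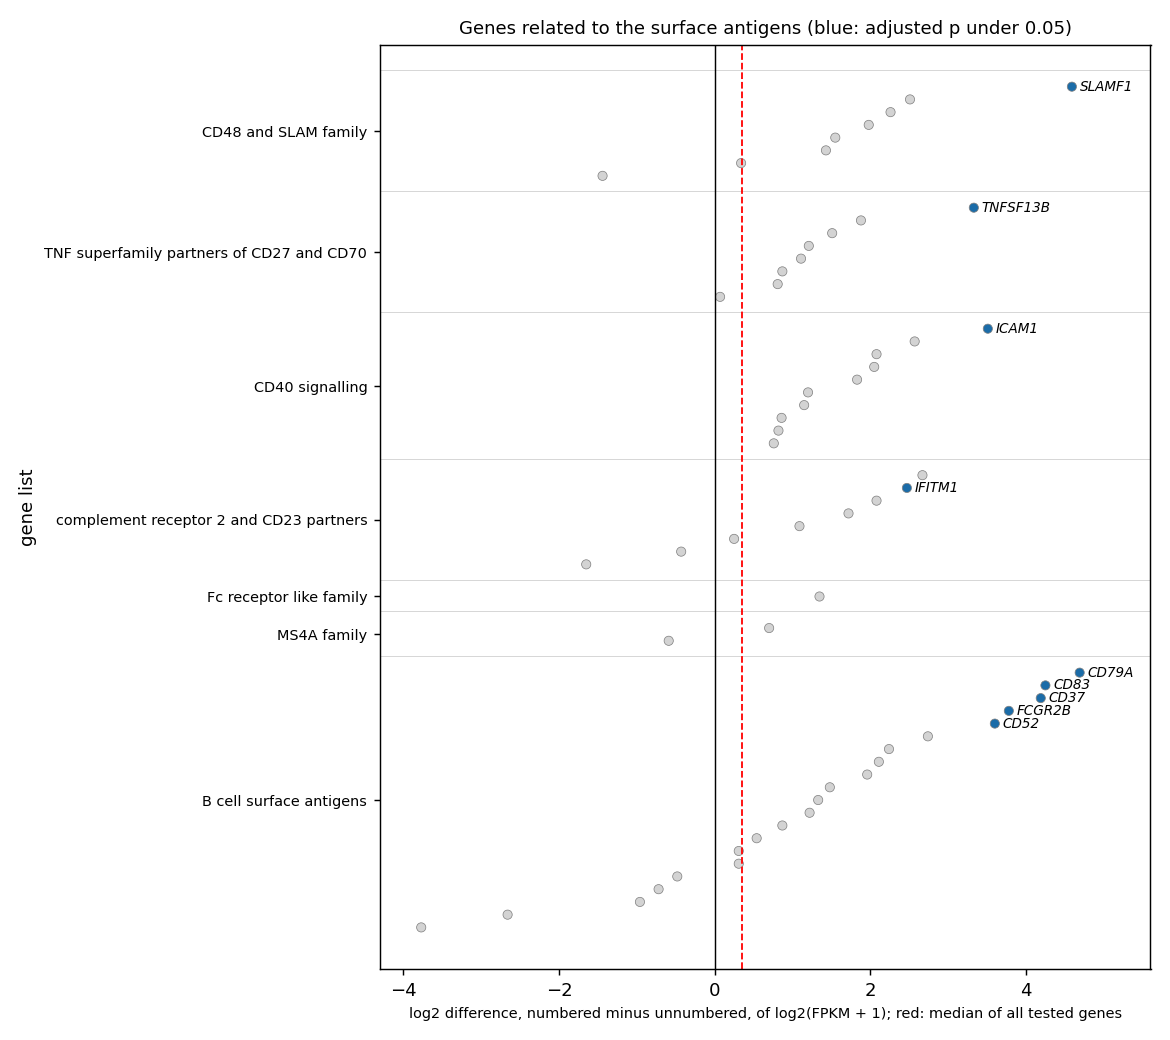
log2 difference (numbered minus unnumbered, of log2(FPKM + 1)) of the 58 tested genes of the related lists, 1 point a gene, sorted within its list. The 9 blue genes passed an adjusted p of 0.05, all to the right of 0; the red dashed line is the median of all tested genes, 0.35.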

How the data were processed

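The authors deposited FPKM per gene and library, with confidence bounds and a quality status. The submitters' processing notes name Cufflinks 2.0.2 and TopHat 1.4.1. Genome build and strand setting were not given in the sources used here, and coordinates follow the authors' files (1-based). A gene was left out if its status was LOWDATA in all 20 libraries (5797) or FAIL in 1 or more (128), and genes with a mean FPKM of 1 or more over the 20 libraries were tested (10506). Sets were compared with limma 3.58.1 (R 4.3.3, trended variance) on log2(FPKM + 1), a scale that shrinks the fold changes of weakly expressed genes, with Benjamini-Hochberg adjustment over all tested genes, a threshold of 0.05 and 2-sided tests; the fit was tested on simulated data. Python 3.11.15 was used for the rest. Named were all members, the called and the most abundant genes of each related list, and the 3 genes most correlated with each member detected in at least 16 libraries. Members and lists were chosen with earlier results of these data known. Sequences are from RefSeq (GRCh38.p14). Depth came from 10 mitochondrial genes. Alternatives were other pseudocounts, filters, scalings, tests and sets of libraries.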

Additional observations from a re-analysis of the deposited data

Results flagged for a closer look

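Of 18 groups of 10 splits (9 genes in 2 sets), 2 held a split far from the rest by Dixon's criterion. The criterion flags about 1 group in 20 for normally distributed values. The FPKM used here are skewed, so that rate does not apply to these groups. CD27 stood at 201 FPKM in numbered split 1, and the next highest value of that set was 96.3 FPKM. CD70 stood at 89.3 FPKM in unnumbered split 250, and the next highest value was 3 FPKM.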

How the results depend on the processing

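With runs b, c and d alone, the count of members called as higher in the numbered splits fell from 3 to 1 of 9. CD38 remained, which had passed the filter on low values through the numbered set alone. The share of all tested genes called in either direction was 4.26%, against 5.31% with all runs. Over the 20 fits that each left out 1 split the member count was 2 to 4, with 4.99 to 5.84% of all tested genes called. In these fits CD48 joined without split 232 and CD70 left without numbered split 2, 3, 5 or 8. The FCRLA difference ranged from -0.15 to 1.01 over these fits and reversed only without unnumbered split 253. An exact rank-sum test called 953 genes in place of 558, with 706 above and 247 below in the numbered splits, and called MS4A1, CD38, CD70 and CD48. Of 99 single-gene results (9 genes under 11 settings, the omission of split 247 among them), 93 kept their direction and side of the threshold, 4 lost the call, 2 gained it and 0 reversed. Among related genes, 4 to 12 were called as higher in the numbered splits under these 11 settings, against 9, and 0 to 2 as higher in the unnumbered ones, against 0. Of these settings, run a as a covariate and runs b, c and d alone estimate the same difference and are not independent. The omission of each split in turn was chosen after seeing the data, except that of split 247. No paired analysis was possible because the numbered and unnumbered splits share no replicate numbers. Depth limits split 247 most, at 0.128 M fragments.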
